A study of Mus musculus with 8 samples.

Results

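The DNA replication machinery was described here as 51 genes chosen by name, out of 54532 genes in the deposited table, with no threshold on a measured value. They fall into 11 groups by role: the origin recognition complex, licensing factors with their inhibitor, the MCM2-7 helicase, the factors that activate it, DNA polymerase α with its primase, polymerases δ and ε, the sliding clamp with its loader, the single-stranded DNA binding protein RPA, the enzymes that finish Okazaki fragments, nucleotide supply, and the chromatin assembly factor CAF-1. RNA was measured by bulk RNA-seq of whole mouse retina in 4 *Mettl3*-CKO and 4 control samples, collected at day 7 after birth according to the sample labels and at day 6 according to the methods. *Mettl3*-CKO mice carry Six3-Cre and floxed alleles of *Mettl3*, which encodes the methyltransferase that places m6A on mRNA, and the Cre allele or floxed alleles that the controls themselves carry are not given in the labels. Whether these controls were littermates is not stated for the RNA-seq. Six3-Cre drives recombination in retinal progenitor cells, the study describes loss of METTL3 for the central retina, and the retina also holds cells of other origin, such as vessels, microglia and blood. Nothing in the labels says whether each sample is a separate animal, so p-values measure only the spread between these samples.

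A cell copies its genome once per division. Origins are bound by the origin recognition complex, which with CDC6 and CDT1 loads the MCM2-7 ring in G1. The ring is switched on in S phase by the CDC7 kinase with its partner DBF4, by CDC45 and by the GINS complex, after which primase and the polymerases copy both strands, and CAF-1 deposits histones behind the fork. In the mouse retina at the end of the first postnatal week, most cells have left the cell cycle, and the late progenitors are the main cells that still copy DNA.

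Each sample had between 16227095 and 20281517 counts in total, and 3 counts, taken as the floor of detection, corresponded to between 0.148 and 0.185 CPM, the count scaled to library size with TMM factors of 0.969 to 1.01. All 51 genes were detected in all 8 samples and all passed the filter on low counts, the weakest of them with 69 counts in its lowest sample. *Mettl3* itself was at 21.1, 29.6, 21.3 and 24.2 CPM across *Mettl3*-CKO replicates 1 to 4 and at 33.7, 32.4, 29.3 and 29.2 CPM across control replicates 1 to 4. Its log2 fold change of -0.38 ± 0.12 (SE) did not pass the test over all genes (edgeR quasi-likelihood test, Benjamini-Hochberg adjusted p = 0.0602), and *Mettl3*-CKO replicate 2 lay within the range of the controls. Some control libraries stood apart in genes of other tissues and cell types. Control replicate 4 held 3237 summed CPM of 12 lens genes, against 70.04 in control replicate 1 and 6.96 to 22.5 in the other 6 samples. Control replicate 1 had the highest summed level of 14 rod genes (6234 CPM) and the lowest of 12 progenitor genes (2372 CPM) among the 8 samples. Counts that lead the results are therefore also given without these libraries.

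Replication transcripts took a larger share of the RNA in *Mettl3*-CKO retinas. The 51 genes together held 0.346%, 0.350%, 0.341% and 0.298% of all counts across *Mettl3*-CKO replicates 1 to 4 and 0.245%, 0.284%, 0.279% and 0.272% across control replicates 1 to 4. The groups did not overlap, and *Mettl3*-CKO replicate 4 lay nearest to the controls. After scaling, the summed level was 3328 ± 256 CPM (SD, n = 4) in *Mettl3*-CKO and 2706 ± 131 CPM (SD, n = 4) in control retinas, a ratio of 1.23. In bulk RNA, a higher proportion of cells with a transcript and more transcript per cell cannot be told apart.

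Of the 51 genes, 15 rose and 0 fell in the *Mettl3*-CKO group past the threshold of 0.05 (edgeR quasi-likelihood test, p-values adjusted over 17998 genes). Among all genes tested, 6.49% were upregulated and 4.05% were downregulated. No member had a negative change even at an unadjusted p under 0.05, where 33 members had a positive one, and DESeq2 called 22 members upregulated and 0 downregulated. The share of all genes at an unadjusted p under 0.05 is not given. Counts at that threshold, here and by role below, therefore have no background beside them. The log2 fold change was positive for 50 of the 51 genes, against 48.2% of all genes tested, and *Orc3* was the 1 exception at -0.08. The median log2 fold change was 0.35 over the 51 genes and -0.01 over all genes tested. In 22 members every *Mettl3*-CKO sample was above every control sample, against 9.83% of all genes, and in 0 members every *Mettl3*-CKO sample was below, against 7.51%. Of these 22, 13 were among the upregulated genes and 9 were not called.

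The changes were moderate in size. Upregulated members ranged from 1.27-fold (*Mcm2*) to 2.07-fold (*Tk1*), and 11 of the 15 were below 1.5-fold. *Mettl3*-CKO replicate 4 was the lowest of its group for 41 of the 51 genes, and control replicate 1 was the lowest of the controls for 29. The number of upregulated members moved with the libraries included. It was 2 without *Mettl3*-CKO replicate 1, when 2.78% of all genes were upregulated, 6 without *Mettl3*-CKO replicate 2 (4.84% of all genes), 7 without *Mettl3*-CKO replicate 3 (4.34%) and 9 without control replicate 2 (3.82%). Without control replicate 1 it was 21 (10.3% of all genes), without control replicate 4 it was 10 (4.58%), at the limit of a 1.5-fold move, and without both of these controls it was 6 (6.25%). *Tk1* and *Dbf4* were upregulated in all 8 fits that left out 1 sample. Each of the other upregulated members lost the threshold in at least 1 of these fits. *Mcm2*, *Pola1* and *Prim1* kept it in only 2 of the 8, the fewest.

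**Figure D1:**
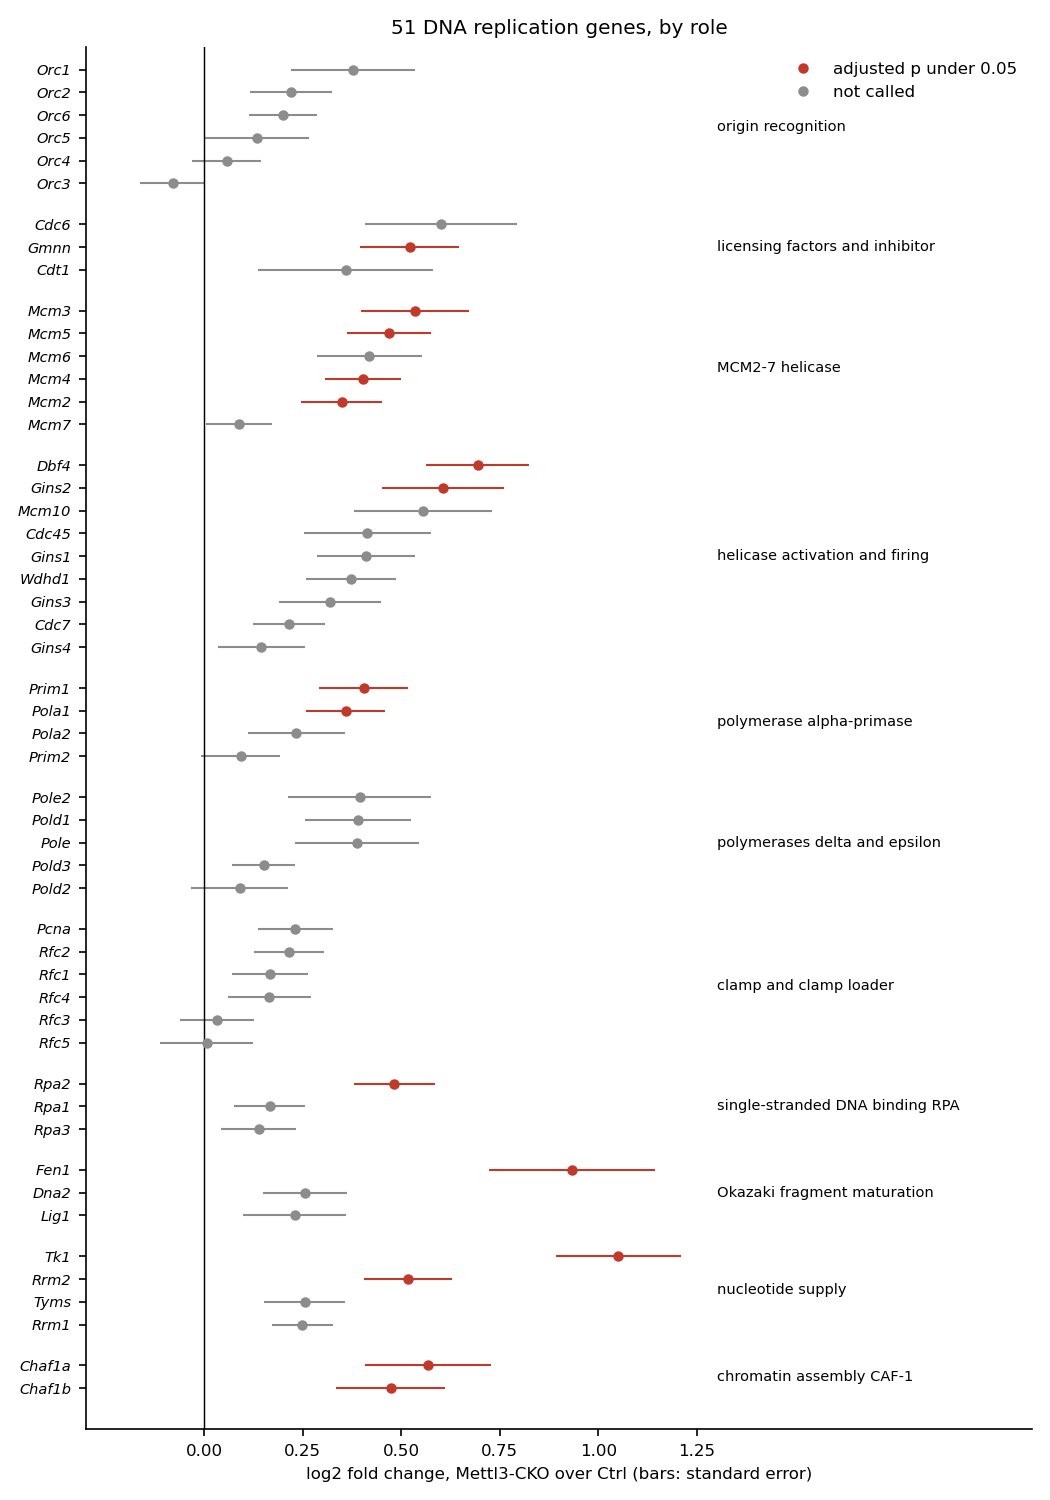
The log2 fold change of each of the 51 replication genes in *Mettl3*-CKO over control retinas (horizontal axis, bars are the standard error, n = 4 per group), grouped by role and ordered within each group. Red points are the 15 genes with an adjusted p under 0.05, all to the right of 0, and *Orc3* is the only point to the left of 0.

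Nucleotide supply held the largest change of all members. *Tk1* (thymidine kinase 1, which salvages thymidine for DNA synthesis, ENSMUSG00000025574, chr11:117815526-117826092, GRCm38, minus strand) was at 108, 87.1, 95.7 and 77.4 CPM across *Mettl3*-CKO replicates 1 to 4 and at 29.9, 46.3, 53.4 and 47.8 CPM across control replicates 1 to 4. The lowest *Mettl3*-CKO sample was well above the highest control. *Tk1* was upregulated by 1.05 ± 0.16 on the log2 scale (SE, adjusted p = 0.00196).

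*Rrm2*, the regulatory subunit of ribonucleotide reductase, which makes the deoxyribonucleotides (ENSMUSG00000020649, chr12:24708241-24714146, plus strand), was at 125, 122, 127 and 120.04 CPM across the *Mettl3*-CKO samples and at 66.3, 86.8, 95.4 and 96.2 CPM in the controls. The 4 *Mettl3*-CKO samples were close to each other (SD 2.97 CPM) and all above the controls (SD 13.9 CPM), and the log2 fold change was 0.52 ± 0.11 (adjusted p = 0.0125). *Rrm2* was also the most abundant member of this role in the controls, at 31.1 ± 5.47 FPKM (SD, n = 4), FPKM being the level per gene length. *Rrm1*, its catalytic partner, did not pass the test at 0.25 ± 0.08 (adjusted p = 0.0576), although its groups did not overlap. *Tyms*, the thymidylate synthase, was at 0.25 ± 0.10 (adjusted p = 0.142) with overlapping groups. In all, 2 of 4 members of this role rose, and the median log2 fold change was 0.39.

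In the MCM2-7 helicase, 4 of 6 subunits were upregulated and the median log2 fold change was 0.41. *Mcm3* (ENSMUSG00000041859, chr1:20802968-20820312, minus strand) was at 102, 110.3, 95.8 and 81.2 CPM across *Mettl3*-CKO replicates 1 to 4 and at 49.6, 74.7, 77.4 and 67.2 CPM across control replicates 1 to 4. Every *Mettl3*-CKO value was above every control value, with replicate 4 of the *Mettl3*-CKO group nearest to the controls, and the log2 fold change was 0.53 ± 0.14 (adjusted p = 0.0276). *Mcm5* (ENSMUSG00000005410, chr8:75109569-75128439, plus strand) was at 109.8, 120.3, 113 and 88.8 CPM against 71.3, 86.4, 81.2 and 73.3 CPM, again with no overlap, and rose by 0.47 ± 0.11 (adjusted p = 0.0163). *Mcm4* rose by 0.40 ± 0.10 (adjusted p = 0.0197) and *Mcm2* by 0.35 ± 0.10 (adjusted p = 0.0481), the latter with overlapping groups through *Mettl3*-CKO replicate 4. *Mcm6* missed the threshold at 0.42 ± 0.13 (adjusted p = 0.0629).

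*Mcm7* had the smallest change of the 6 subunits. It was also the most abundant, at 51.8 ± 2.89 FPKM in the controls, where the other 5 were between 15.1 and 21.4 FPKM. It was at 239, 246, 269 and 225 CPM across the *Mettl3*-CKO samples and at 244, 229, 238 and 208 CPM in the controls (ENSMUSG00000029730, chr5:138164583-138172422, minus strand). The groups overlapped in part of their range, and the log2 fold change of 0.09 ± 0.08 did not pass the test (adjusted p = 0.574). The difference between *Mcm7* and the other subunits was not tested. A pseudogene annotated as a copy of *Mcm7* held 68 counts over all samples against 34577 for *Mcm7*.

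E2F transcription factors are known to drive many replication genes at the start of S phase. Some exact forms of the letters they bind were searched in the promoters. The windows below run from 250 bases before to 50 bases after the transcript start (RefSeq, GRCm38.p6), 5′ to 3′ on the gene's strand, and capitals mark every match on either strand to TTTCCCGC, TTTGGCGC, TTTCGCGC or TTTGCCGC. *Mcm3* and *Mcm5*, which rose, are shown beside *Mcm6* and *Mcm7*, which did not pass the test, and beside *Tk1*, which had the largest change of all members and no match.
*Mcm3*, chr1:20820263-20820562, minus strand: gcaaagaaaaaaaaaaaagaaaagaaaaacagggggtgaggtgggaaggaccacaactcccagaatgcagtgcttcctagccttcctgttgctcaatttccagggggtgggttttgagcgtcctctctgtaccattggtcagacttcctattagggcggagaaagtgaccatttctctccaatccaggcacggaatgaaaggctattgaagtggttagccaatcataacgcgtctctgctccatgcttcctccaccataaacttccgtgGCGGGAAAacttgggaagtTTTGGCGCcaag
*Mcm5*, chr8:75109259-75109558, plus strand: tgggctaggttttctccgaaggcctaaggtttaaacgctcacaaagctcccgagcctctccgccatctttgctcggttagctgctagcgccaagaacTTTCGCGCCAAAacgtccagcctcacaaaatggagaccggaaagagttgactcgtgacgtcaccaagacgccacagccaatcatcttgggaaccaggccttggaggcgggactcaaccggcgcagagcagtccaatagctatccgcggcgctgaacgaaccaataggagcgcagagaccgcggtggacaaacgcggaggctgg
*Mcm6*, chr1:128359656-128359955, minus strand: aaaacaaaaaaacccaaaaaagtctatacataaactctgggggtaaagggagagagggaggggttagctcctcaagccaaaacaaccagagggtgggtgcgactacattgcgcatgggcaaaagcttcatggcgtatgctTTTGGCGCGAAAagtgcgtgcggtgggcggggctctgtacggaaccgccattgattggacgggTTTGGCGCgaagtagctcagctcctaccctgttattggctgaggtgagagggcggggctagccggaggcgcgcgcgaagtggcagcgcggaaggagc
*Mcm7*, chr5:138171834-138172133, minus strand: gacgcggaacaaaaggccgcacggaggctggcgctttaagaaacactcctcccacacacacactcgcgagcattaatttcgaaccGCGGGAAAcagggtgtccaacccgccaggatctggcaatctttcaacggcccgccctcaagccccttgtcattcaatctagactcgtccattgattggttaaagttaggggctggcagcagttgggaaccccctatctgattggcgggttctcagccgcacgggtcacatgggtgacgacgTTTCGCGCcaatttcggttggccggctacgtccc
*Tk1*, chr11:117825965-117826264, minus strand: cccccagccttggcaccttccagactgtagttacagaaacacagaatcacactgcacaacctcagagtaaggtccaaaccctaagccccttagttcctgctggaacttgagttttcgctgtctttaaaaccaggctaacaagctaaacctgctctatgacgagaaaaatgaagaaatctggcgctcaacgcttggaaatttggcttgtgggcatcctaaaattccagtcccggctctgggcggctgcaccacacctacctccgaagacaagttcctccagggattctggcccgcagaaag

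*Mcm3* held 2 matches and both lay after the transcript start, beginning 19 and 38 bases from it. *Mcm5* held 2 matches that overlap each other on opposite strands, starting at -153 and -149. *Mcm6* held 3, of which the pair starting at -110 and -106 overlap in the same way and the last starts at -47. In the *Mcm7* window the matches started at -165 and 16, and a further listed start of *Mcm7* held none. The window of *Mcm2*, which rose, held no match. Of 51 members, 43 had a window (*Gins1*, *Gins2*, *Gins4*, *Gmnn*, *Mcm4*, *Pole*, *Prim2* and *Rfc2* were not matched), and 15 of the 43 (34.9%) held these letters in a window, against 704 of 27025 genes (2.60%). The letters were present in 3 of 12 upregulated members (25%) and in 12 of 31 members that were not called (38.7%). These shares were not compared by a test. Sites that depart from the letters searched were not counted, so a window without a match may still hold one. A CCAAT box (CCAAT) was in 55.8% of members and 41.1% of all genes, the Sp1 letters GGGCGG in 76.7% and 38.2%, and the cell cycle homology region (TTTGAA) in 16.3% and 20.2%, each on either strand. The 27025 genes include some that did not pass the filter on low counts, and the windows were not matched for base composition. A match to letters describes the window and is not evidence of binding.

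**Figure D2:**
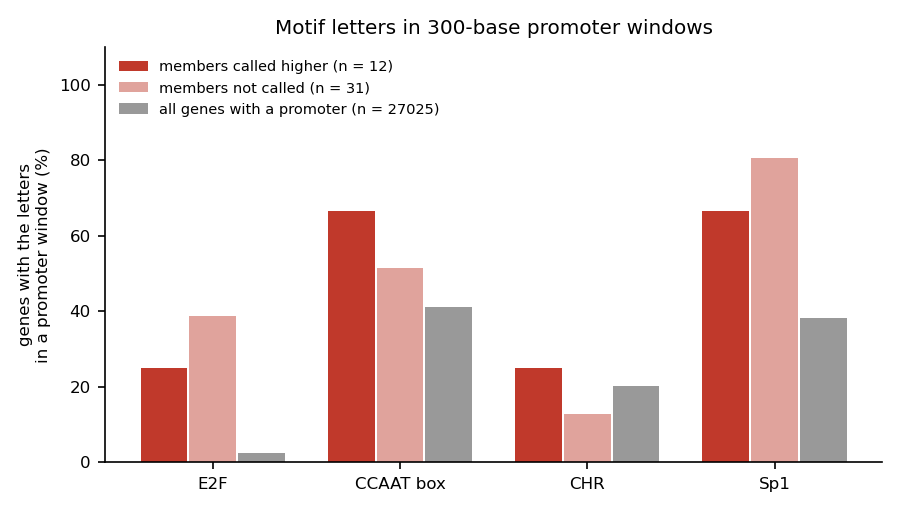
The share of genes (vertical axis, %) with the letters of each motif in a promoter window of 300 bases, for the 12 upregulated members, the 31 members not called and all 27025 genes with a window. The E2F letters were in 25% and 38.7% of the member sets and in 2.60% of all genes.

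Upstream of the helicase, the origin recognition complex held 0 upregulated genes of 6 by edgeR or by DESeq2, with 2 at an unadjusted p under 0.05, and its median log2 fold change was 0.17. The summed level of its 6 genes was 319 ± 1.57 CPM in *Mettl3*-CKO and 307 ± 23.9 CPM in control retinas (SD, n = 4), a ratio of 1.04 with overlapping groups. *Orc3*, the most abundant subunit (20.9 ± 0.990 FPKM in the controls, ENSMUSG00000040044, chr4:34570796-34614944, minus strand), was at 111, 121, 123 and 128 CPM across *Mettl3*-CKO replicates 1 to 4 and at 138, 127, 119 and 127 CPM across control replicates 1 to 4. The groups overlapped, with a log2 fold change of -0.08 ± 0.08 (adjusted p = 0.602). *Orc1*, the subunit known to vary most with the cell cycle, was the least abundant member of all 51 (1.56 FPKM in the controls) and stood at 0.38 ± 0.16 (adjusted p = 0.156). The other 4 subunits ranged from 0.06 (*Orc4*) to 0.22 (*Orc2*), and 29.8% of the exon bases of *Orc2* are shared with *Nif3l1* on the opposite strand, which leaves its value uncertain.

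Of the 3 licensing genes, 1 rose. *Gmnn* encodes geminin, which binds CDT1 and blocks licensing after S phase begins (ENSMUSG00000006715, chr13:24751845-24761923, minus strand). It was at 39.9, 38.5, 44.6 and 34.2 CPM across *Mettl3*-CKO replicates 1 to 4 and at 23.3, 31.5, 31.5 and 23.2 CPM across control replicates 1 to 4. All *Mettl3*-CKO samples were above all controls, and the log2 fold change was 0.52 ± 0.13 (adjusted p = 0.0216). *Cdc6* did not pass the test at 0.60 ± 0.19 (adjusted p = 0.0654), although its groups did not overlap, and it did pass by DESeq2 (adjusted p = 0.0197). *Cdt1* stood at 0.36 ± 0.22 (adjusted p = 0.353) with overlapping groups.

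Among the 9 genes that activate the helicase, 2 rose, 8 were higher at an unadjusted p under 0.05, and the median log2 fold change was 0.41. *Dbf4*, the activating partner of CDC7 (ENSMUSG00000002297, chr5:8396973-8422716, minus strand), was at 108, 100.1, 95.1 and 69.3 CPM across *Mettl3*-CKO replicates 1 to 4 and at 59.2, 65.3, 53.0 and 52.7 CPM across control replicates 1 to 4. *Mettl3*-CKO replicate 4 lay just above the highest control and the other 3 were further away, and the log2 fold change was 0.69 ± 0.13 (adjusted p = 0.00632). *Gins2*, a GINS subunit, was at 17.0, 14.8, 17.4 and 11.7 CPM against 8.07, 9.84, 11.4 and 10.6 CPM and rose by 0.61 ± 0.15 (adjusted p = 0.0262). Its gene (ENSMUSG00000031821, chr8:120578633-120589304, minus strand) shares 67.3% of its exon bases with *Gse1* on the opposite strand, and whether the counting used strand is not given in the sources used here, so its value is uncertain. *Gse1* stood at -0.11 (adjusted p = 0.710).

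*Gins4* was the most abundant gene of this role, at 17.0 ± 1.68 FPKM in the controls (ENSMUSG00000031546, chr8:23226616-23237659, minus strand). It was at 27.7, 26.9, 25.03 and 22.5 CPM against 26.2, 23.7, 22.5 and 19.8 CPM, with a log2 fold change of 0.15 ± 0.11 (adjusted p = 0.462) and overlapping groups. *Mcm10* (0.55), *Cdc45* (0.41), *Gins1* (0.41), *Wdhd1* (0.37), *Gins3* (0.32) and *Cdc7* (0.22) had positive log2 fold changes that did not pass the test, *Gins1* at an adjusted p of 0.0522.

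DNA polymerase α with its primase starts each new strand, and 2 of its 4 genes rose. *Prim1*, the catalytic primase subunit (ENSMUSG00000025395, chr10:128015168-128030037, plus strand), was at 55.1, 56.3, 56.7 and 42.2 CPM across *Mettl3*-CKO replicates 1 to 4 and at 34.6, 43.9, 41.4 and 38.8 CPM across control replicates 1 to 4. Replicate 4 of the *Mettl3*-CKO group fell within the range of the controls and the other 3 lay above it, and the log2 fold change was 0.41 ± 0.11 (adjusted p = 0.0380). *Pola1*, the catalytic polymerase subunit on the X chromosome (ENSMUSG00000006678, chrX:93304767-93632155, minus strand), was at 42.0, 45.5, 47.3 and 35.6 CPM against 33.3, 34.7, 33.9 and 30.8 CPM. Its groups did not overlap, but *Mettl3*-CKO replicate 4 lay close to control replicate 2, and it rose by 0.36 ± 0.10 (adjusted p = 0.0381).

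*Pola2*, the accessory subunit and the most abundant of the 4 in the controls (10.3 ± 1.10 FPKM, ENSMUSG00000024833, chr19:5940543-5964206, minus strand), was at 39.1, 39.5, 33.3 and 27.5 CPM against 26.6, 32.7, 31.1 and 28.0 CPM. Its groups overlapped, and the log2 fold change was 0.23 ± 0.12 (adjusted p = 0.262). *Prim2*, the large primase subunit, stood at 0.09 ± 0.10 (adjusted p = 0.625).

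Polymerases δ and ε extend the new strands, and 0 of their 5 genes passed the test by edgeR. At an unadjusted p under 0.05, 3 were higher and 0 lower, and DESeq2 called 1. The median log2 fold change was 0.39, with *Pole2* (0.39), *Pold1* (0.39) and *Pole* (0.39) close together. *Pold2*, the most abundant (22.4 ± 4.12 FPKM in the controls, ENSMUSG00000020471, chr11:5872180-5878292, minus strand), was at 48.3, 46.5, 47.6 and 38.9 CPM across the *Mettl3*-CKO samples and at 35.3, 49.9, 47.8 and 37.1 CPM in the controls. The groups overlapped over nearly their whole range and the log2 fold change was 0.09 ± 0.12 (adjusted p = 0.712). *Pold3* stood at 0.15 ± 0.08 (adjusted p = 0.266).

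The sliding clamp and its loader also held 0 called genes of 6 by edgeR and by DESeq2, with 2 higher and 0 lower at an unadjusted p under 0.05. *Pcna*, the clamp and a widely used marker of cycling cells (ENSMUSG00000027342, chr2:132249162-132253314, minus strand), was the most abundant of all 51 genes, at 92.8 ± 7.47 FPKM in the controls. It was at 250.03, 268, 302 and 228 CPM across *Mettl3*-CKO replicates 1 to 4 and at 204, 238, 231 and 219.6 CPM across control replicates 1 to 4. Replicates 1 to 3 of the *Mettl3*-CKO group were above all controls and replicate 4 was not, and the log2 fold change was 0.23 ± 0.10 (adjusted p = 0.151). The 5 clamp loader genes ranged from 0.01 (*Rfc5*) to 0.22 (*Rfc2*), and the signs of *Rfc3* and *Rfc5* changed in some of the fits with a sample left out. The median of the role was 0.17, below the 0.35 of the whole set, a difference that was not tested.

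RPA coats single-stranded DNA, and 1 of its 3 subunits rose. *Rpa2* (ENSMUSG00000028884, chr4:132768332-132778752, plus strand) was at 67.8, 56.6, 72.0 and 54.4 CPM across *Mettl3*-CKO replicates 1 to 4 and at 47.7, 43.7, 45.0 and 42.9 CPM across control replicates 1 to 4. The controls were close together (SD 2.11 CPM), all *Mettl3*-CKO samples were above them, and the log2 fold change was 0.48 ± 0.10 (adjusted p = 0.0119). *Rpa3*, the smallest subunit (ENSMUSG00000012483, chr6:8255936-8259173, minus strand), was the most abundant at 23.3 ± 1.44 FPKM in the controls. It was at 30.7, 28.7, 31.5 and 25.9 CPM against 26.7, 28.2, 24.6 and 26.5 CPM, with overlapping groups and a log2 fold change of 0.14 ± 0.09 (adjusted p = 0.411). *Rpa1*, the large subunit, stood at 0.17 ± 0.09 (adjusted p = 0.282).

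Of the 3 enzymes that finish Okazaki fragments, *Fen1* rose. *Fen1* encodes the flap endonuclease (ENSMUSG00000024742, chr19:10199132-10204169, minus strand) and was at 13.1, 7.00, 8.91 and 8.39 CPM across *Mettl3*-CKO replicates 1 to 4 and at 5.18, 4.77, 3.61 and 6.01 CPM across control replicates 1 to 4. *Mettl3*-CKO replicate 1 was far above the other samples of its group, no sample overlapped, and the log2 fold change was 0.93 ± 0.21 (adjusted p = 0.0159), or 0.73 without that replicate (adjusted p = 0.0611). The gene shares 78.8% of its exon bases with the antisense gene *Gm10143*, which held 96 counts over all samples against 1042 for *Fen1* and stood at -0.20 (adjusted p = 0.777). Without knowledge of strand in the counting, the value of *Fen1* is uncertain.

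*Lig1*, the ligase that seals the fragments (ENSMUSG00000056394, chr7:13277283-13311433, plus strand), was the most abundant of these 3, at 22.3 ± 4.06 FPKM in the controls. It was at 112, 130.1, 111 and 94.0 CPM against 72.2, 106, 106 and 97.1 CPM, with overlapping groups and a log2 fold change of 0.23 ± 0.13 (adjusted p = 0.308). *Dna2*, a nuclease and helicase, stood at 0.26 ± 0.11 (adjusted p = 0.160), and its groups did not overlap.

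Both genes of CAF-1, which loads new histones H3 and H4 behind the fork, rose. *Chaf1a* (ENSMUSG00000002835, chr17:56040439-56072289, plus strand) was at 51.3, 55.7, 38.9 and 37.3 CPM across *Mettl3*-CKO replicates 1 to 4 and at 22.7, 35.3, 34.8 and 30.6 CPM across control replicates 1 to 4. *Mettl3*-CKO replicates 3 and 4 lay just above the controls, and the log2 fold change was 0.57 ± 0.16 (adjusted p = 0.0387). It shares 52.5% of its exon bases with *Ubxn6* on the opposite strand, which fell by 0.46 on the log2 scale (adjusted p = 0.0214), and without knowledge of strand the value of *Chaf1a* is uncertain. *Chaf1b*, the more abundant at 5.53 ± 1.12 FPKM in the controls (ENSMUSG00000022945, chr16:93883901-93906115, plus strand), was at 41.6, 35.3, 35.6 and 31.6 CPM against 18.8, 27.4, 30.0 and 27.5 CPM. Its groups did not overlap, and it rose by 0.47 ± 0.14 (adjusted p = 0.0468). *Chaf1a* and *Chaf1b* were each called in 3 of the 8 fits that left out 1 sample.

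**Figure D3:**
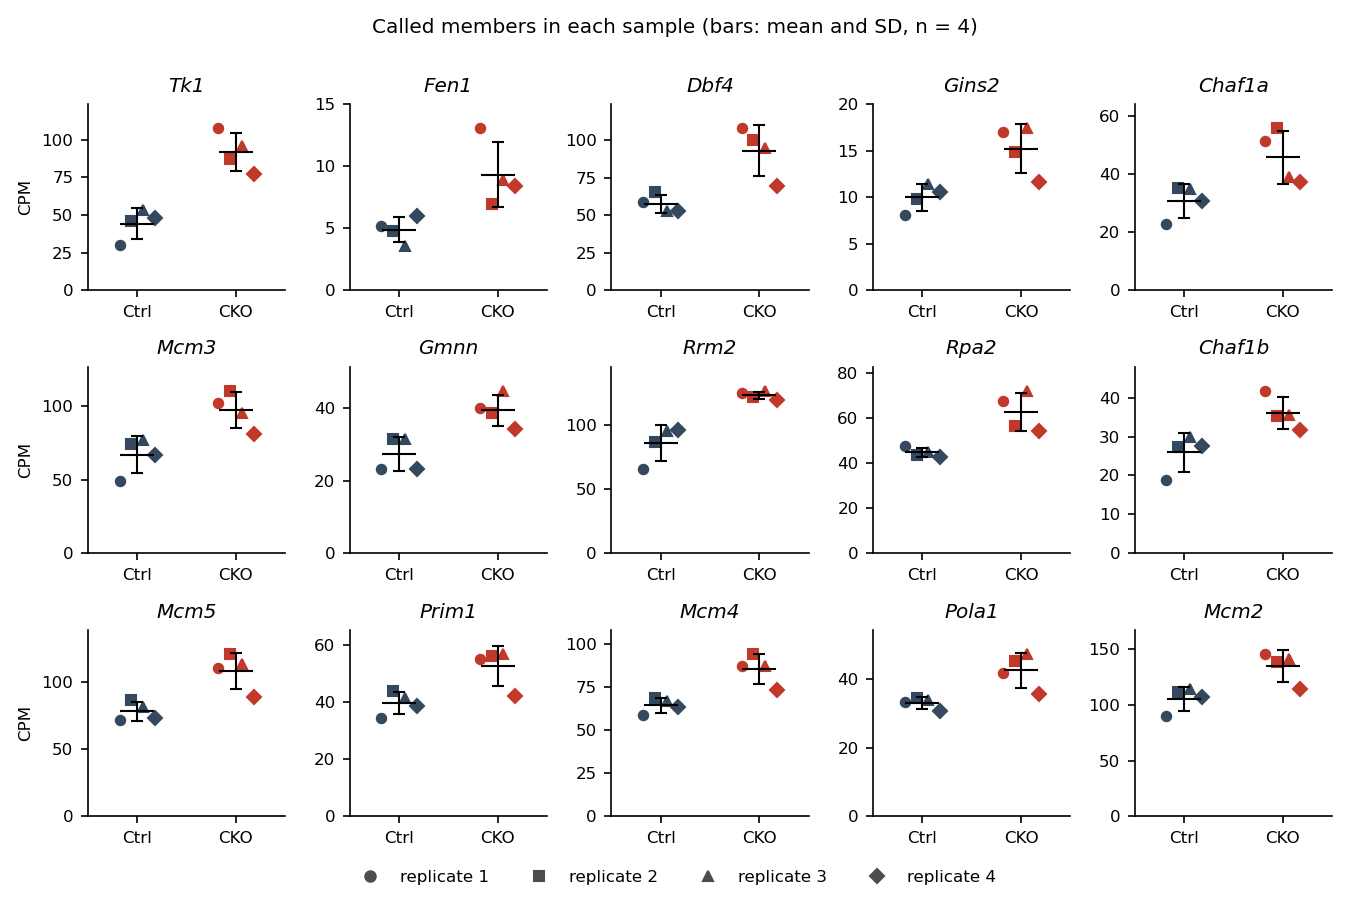
CPM of the 15 upregulated members in each sample (vertical axes start at 0), with controls in dark blue and *Mettl3*-CKO samples in red, marker shapes giving the replicate and bars the mean and SD (n = 4). The groups are separate in 13 panels, they overlap in *Mcm2* and *Prim1*, and the diamond of *Mettl3*-CKO replicate 4 is the lowest of its group in 14 panels.

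Some partners within one complex differed in the size of their change. The ratio of partners was therefore compared in 7 pairs, which were chosen with their values known, by two-sided exact permutation tests over the 8 samples, where the smallest p possible is 0.0286. The log2 ratio of *Dbf4* to *Cdc7* was 1.18, 1.05, 1.003 and 0.69 across *Mettl3*-CKO replicates 1 to 4 and 0.42, 0.62, 0.55 and 0.49 across control replicates 1 to 4, so that the groups did not overlap and differed by 0.46 (exact permutation p = 0.0286, 0.1 after adjustment over the pairs). The log2 ratio of *Prim1* to *Prim2* was 0.76, 0.91, 0.79 and 0.65 against 0.09, 0.65, 0.58 and 0.56, a difference of 0.31 (exact permutation p = 0.0286, 0.1 after adjustment). Neither passed after adjustment. With 7 pairs and this smallest p, an adjusted p under 0.05 was possible only if most pairs were fully separate. The adjusted test therefore could not decide on single pairs. Because the pairs were chosen with these same values known, the unadjusted p-values describe the separation of the samples and are no test of it. *Rrm2* over *Rrm1* differed by 0.29 (exact permutation p = 0.0857, adjusted 0.2), and the other 4 pairs (*Cdt1* and *Gmnn*, *Chaf1a* and *Chaf1b*, *Pola1* and *Pola2*, *Pole* and *Pole2*) had overlapping ratios that differed by -0.10 to 0.13.

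**Figure D4:**
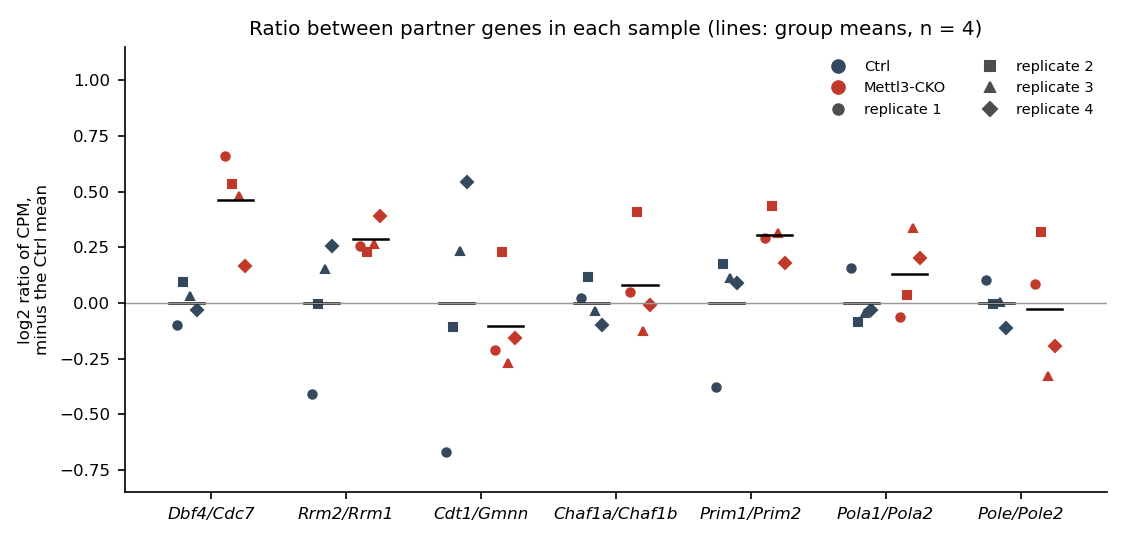
The log2 ratio of CPM between partner genes in each sample, minus the mean of the controls for that pair (vertical axis), with controls in dark blue, *Mettl3*-CKO samples in red, marker shapes giving the replicate and lines the group means (n = 4). Groups are separate for *Dbf4*/*Cdc7* and *Prim1*/*Prim2*, with mean differences of 0.46 and 0.31, and overlap for the other 5 pairs. The pairs were chosen with these values known.

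Of 41 accessory replication genes outside the 51, all tested, 9 were upregulated and 0 downregulated, against 6.49% and 4.05% of all genes (edgeR, 0 lower also at an unadjusted p under 0.05 and by DESeq2, while voom called 1 lower), and the median log2 fold change was 0.25. Among 26 accessory replication factors 4 rose, with *Donson*, a fork and firing factor, at 0.48 ± 0.10 (adjusted p = 0.00875) and *Tipin*, of the fork protection complex, at 0.42 ± 0.09 (adjusted p = 0.0152). In accessory nucleotide supply 3 of 8 rose, among them *Shmt1*, a serine hydroxymethyltransferase that feeds thymidylate synthesis, at 0.52 ± 0.11 (adjusted p = 0.0102). In accessory chromatin replication 2 of 7 rose, *Asf1b*, a histone chaperone that works with CAF-1, at 0.66 ± 0.15 (adjusted p = 0.0144) and *Slbp*, which binds histone mRNA, at 0.34 ± 0.10 (adjusted p = 0.0411).

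Of 25 mitosis genes, 8 were upregulated and 0 downregulated, against 6.49% and 4.05% of all genes (edgeR, 0 lower also at an unadjusted p under 0.05 and by DESeq2), with a median log2 fold change of 0.33 and overlapping summed levels. *Cenpf*, a kinetochore protein, was at 379, 282, 278 and 235 CPM across *Mettl3*-CKO replicates 1 to 4 and at 163, 164, 124 and 154 CPM across control replicates 1 to 4, a log2 fold change of 0.96 ± 0.14 (adjusted p = 0.00140). *Birc5*, which encodes survivin of the chromosomal passenger complex, rose by 0.62 ± 0.11 (adjusted p = 0.00559). Summed CPM of the replication genes divided by that of the mitosis genes was 1.25, 1.28, 1.43 and 1.45 across the *Mettl3*-CKO samples and 1.44, 1.28, 1.53 and 1.48 in the controls. These ratios overlapped between the groups.

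Marker genes of several retinal cell types moved beside the replication genes. Of 12 retinal progenitor markers, 3 were upregulated and 0 downregulated (edgeR, against 6.49% and 4.05% of all genes). The 3 included *Fgf15* at 1.08 ± 0.20 (adjusted p = 0.00612) and *Lhx2* at 0.52 ± 0.14 (adjusted p = 0.0312). The list was mixed, with a positive log2 fold change in 8 markers, a negative one in 4 and a median of 0.25. Its summed CPM was 3121 to 4237 in *Mettl3*-CKO and 2372 to 3379 in control samples, which overlap. Of 14 rod markers 8 were downregulated, with *Pde6b* at -1.09 ± 0.24 (adjusted p = 0.0150) and *Gnat1* at -0.98 ± 0.26 (adjusted p = 0.0284), and their summed CPM was 2382 to 3922 in *Mettl3*-CKO and 4033 to 6234 in control samples. Of 9 Müller glial markers tested, *Glul* rose by 0.43 and *Rlbp1* fell by 1.28 on the log2 scale. Of 9 endothelial markers tested 6 were downregulated, and control replicate 1 was the highest of the 8 samples for all 6. *Tie1* was at 8.07 CPM there against 1.73 to 2.53 CPM in the other controls, and *Cdh5* at 11.4 against 2.93 to 4.22 CPM. Also downregulated were 2 of 3 erythrocyte and 4 of 7 lens markers tested, the last through control replicate 4. Among microglial markers 0 of 9 were called, with 1 at an unadjusted p under 0.05. No marker listed was at 0 in all samples. The part of cell composition in the replication results was not tested.

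**Figure D5:**
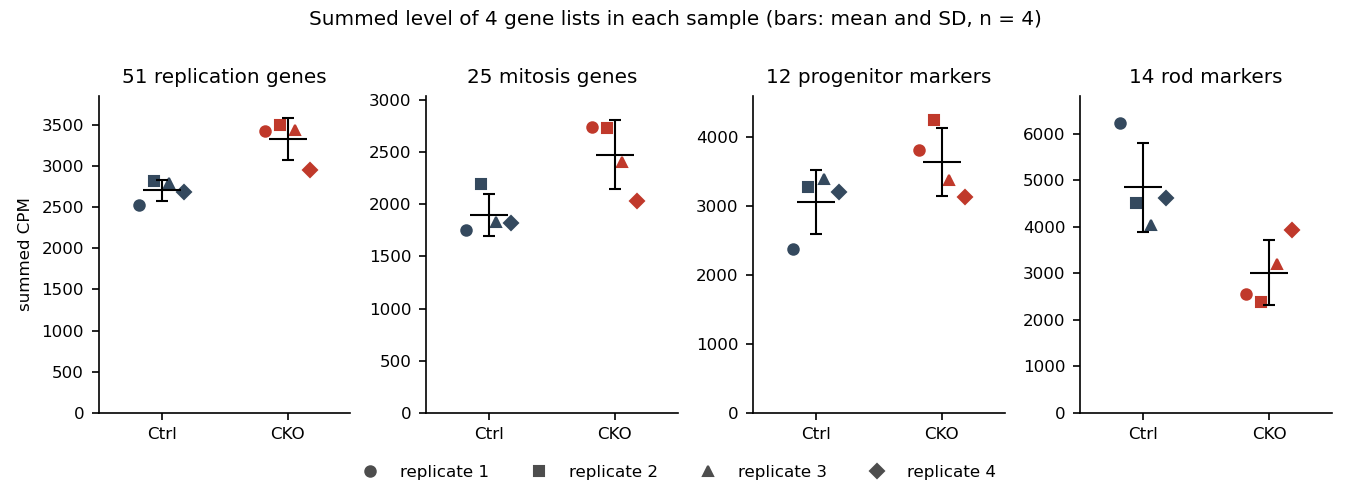
Summed CPM (vertical axes start at 0) of the 51 replication genes, 25 mitosis genes, 12 progenitor markers and 14 rod markers in each sample, with controls in dark blue, *Mettl3*-CKO samples in red, marker shapes giving the replicate and bars the mean and SD (n = 4). Replication genes are separate between the groups (2947 to 3499 against 2528 to 2816 CPM), rod markers are separate in the other direction, and the mitosis and progenitor sums overlap.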

How the data were processed

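Whole retinas of 4 *Mettl3*-CKO and 4 control samples were profiled by RNA-seq, and replicate numbers were taken from the sample labels. Per the methods and labels, the authors filtered paired-end reads, mapped them to GRCm38 (mm10) with HISAT2 and counted reads per gene with featureCounts. The annotation release and the strand setting of the counting are not given in the sources used here. The deposited table holds raw read counts per gene for 54532 genes, as whole numbers, with totals of 16227095 to 20281517 per sample, together with the gene lengths and coordinates of the authors. Of the 51 members, 50 have the same coordinates and strand in GENCODE vM21. Counting error is larger for the weaker members, the lowest of which held 69 counts in its lowest sample. The biological coefficient of variation estimated by edgeR was 15.0%. No pair of samples held identical counts.

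Counts were analysed in R 4.3.3 with edgeR 4.0.16 (filterByExpr, TMM, glmQLFit and glmQLFTest, two-sided), which tested 17998 genes. P-values were adjusted by the Benjamini-Hochberg method over all of them, and called under 0.05. Standard errors of log2 fold changes are their size divided by the square root of F. CPM uses TMM-scaled totals, and FPKM was obtained by dividing the deposited counts by gene length and by each sample's total. The script was tested on simulated data. DESeq2 1.42.0, limma 3.58.1 (voom), other scalings, filters, thresholds, samples left out and a replicate block (the replicate number as a term) were run as alternatives. Ratios between partners were compared by exact permutation tests (scipy 1.17.1). The 7 pairs and the fit without control replicates 1 and 4 together were added after the data had been seen.

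The members and all lists were chosen with earlier results of these data known. Values in every sample are given, in each role, for the 2 largest changes among called members and the most abundant member in controls, and for genes outside the members only the 2 largest called changes in a direction per list are named, plus overlapping genes, which were chosen after their values were seen. Some genes that this rule covers are not reported here by name. Promoter windows were taken from RefSeq (GRCm38.p6) by gene symbol.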

Additional observations from a re-analysis of the deposited data

Results flagged for a closer look

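Within each group of 4 samples, the sample farthest from the rest was compared with Dixon's 95% critical value for each of the 51 replication genes. It was exceeded in 7 of 102 groups, and chance alone gives about 1 in 20, or 5.1 of 102. Control replicate 1 stood apart in 4 genes. Its log2 CPM was high for *Orc5* (5.22, against 4.65 to 4.71 in the other controls) and low for *Pole* (4.91, against 5.61 to 5.62), *Pole2* (2.18, against 2.97 to 3.09) and *Rfc5* (4.65, against 5.10 to 5.15). *Mettl3*-CKO replicate 4 was low in 3 genes, with a log2 CPM of 5.43 for *Cdc7* (5.57 to 5.60 in the others of its group), 5.40 for *Prim1* (5.79 to 5.83) and 7.56 for *Rrm1* (7.74 to 7.76). Of these 7 genes *Prim1* was the 1 called upregulated.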

How the results depend on the processing

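The number of upregulated replication genes (15) was 13 to 22 under other tests, scalings and filters, with 22 by DESeq2 and 21 by voom, which called 4.28% of 34486 and 11.9% of 17998 genes tested upregulated, against 6.49% of 17998 in the reported fit. Other scalings called 6.24% to 6.9% of all genes upregulated, and the other filters 3.86% and 6.46%. The number of upregulated members was 2 at an adjusted p under 0.01 and 4 with a change of at least 1.5-fold also required. The share of all genes at these thresholds is not given. Without control replicates 1 and 4 together 6 members were upregulated (6.25% of all genes), and with 1 sample left out 2 to 21 (2.78% to 10.3%). The count of downregulated members was 0 in all of these. The median log2 fold change of the 51 genes stayed between 0.25 and 0.40. Members whose groups do not overlap numbered 22. With 1 sample left out this count can only stay or rise, so it is not a check of stability. It was then 22 to 37, with 37 without *Mettl3*-CKO replicate 4, and the matching share of all genes is not given. Upregulated accessory genes (9) numbered 15 by DESeq2, 21 by voom, 15 with no filter, 2 at an adjusted p under 0.01, 1 with at least 1.5-fold, and 3 to 17 with 1 sample left out, and voom called 1 accessory gene downregulated. Upregulated mitosis genes (8) numbered 3 at an adjusted p under 0.01, 3 with at least 1.5-fold, 5 without control replicates 1 and 4 together, and 3 to 12 with 1 sample left out. The shares of all genes given for the same fits apply to the accessory and mitosis counts. With fewer samples the number of upregulated replication genes moved both ways, to 21 without control replicate 1 and to 6 without control replicates 1 and 4 together. The cause of the moves in these counts was not tested. The 13 upregulated members given with their values in every sample kept their direction throughout, and lost the threshold in 50 of 221 combinations of gene and fit.

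Samples share replicate numbers, but the same numbers did not deviate together (correlations of deviations of -0.11, 0.21, -0.11 and 0.25), so the numbers were not treated as pairs. With the replicate block, 16 members, 9 accessory genes and 12 mitosis genes were upregulated, beside 6.66% of all genes. *Mcm2* (adjusted p = 0.063) and *Chaf1b* (adjusted p = 0.0774) were no longer called. Replicates 2 and 4 of the *Mettl3*-CKO group correlated best with the control of their own number and replicates 1 and 3 did not, a hint from the data and not the design.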
